A study of Mus musculus with 18 samples.

Results

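KAP1, encoded by Trim28, was mapped on chromatin of mouse embryonic stem (ES) cells with and without the gene, and the map consists of 3 lists of peaks. The first holds 3099 peaks of the wild-type immunoprecipitate over input, the second 2382 peaks of the same wild-type immunoprecipitate over the knockout immunoprecipitate, and the third 1898 peaks of the knockout immunoprecipitate over input. All 7379 peaks are described, of 100659 regions in the 6 chromatin lists analysed here, the other 3 being lists of H3K9me3. A peak is an interval where the immunoprecipitated library held more reads than its comparison library, and the score the authors' caller gave each peak orders the peaks within a list. The knockout list was measured the same way in the knockout cells. It can hold background of the assay and binding by any KAP1 that remained, which cannot be told apart here because KAP1 protein was not analysed.

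The cells were ES3 cells, an ES line of strain C57BL/6, grown in serum and LIF on gelatin without feeder cells named in the labels. The knockout cells were taken 4 days after Cre was switched on with 4-hydroxytamoxifen, and the wild-type cells after 4 days of culture. The labels do not say whether the wild-type cells received the drug. Chromatin was precipitated with a rabbit polyclonal serum against KAP1. The 2 immunoprecipitates and their 2 inputs are 4 of the 18 samples of the series, and each condition is 1 library, so no value below has a replicate check. The H3K9me3 lists and the RNA values used beside the peaks come from the same line, genotypes and day, also with 1 library each.

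KAP1 does not bind DNA itself. Zinc finger proteins of the KRAB family recognise a sequence, usually within a transposable element, and bring KAP1, which in turn recruits the methyltransferase SETDB1, HP1 and other factors that lay down the repressive mark H3K9me3. In ES cells the system is best known for silencing endogenous retroviruses and for protecting the methylated allele at imprinting control regions, where the zinc finger protein ZFP57 brings KAP1 to the methylated hexamer TGCCGC.

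Trim28 RNA checks the labels: it measured 1051 RPKM (reads per length of transcript and per size of library) in the wild-type library and 37.19 RPKM after the knockout, or 3.54% of wild type. All 8 ES cell markers stood at 1 RPKM or more in both libraries. Their summed level was 1754 RPKM (wild type) and 903.4 RPKM (knockout). Markers of primitive endoderm, an early lineage that ES cultures can form, summed to 73.62 RPKM (wild type) and 1665 RPKM (knockout), with 5 and then all 10 at 1 RPKM or more. Of the 12 fibroblast markers, 2 stood at 1 RPKM or more in wild type and 7 in the knockout, with sums of 54.28 and 322.4 RPKM, and Postn and Twist2 were listed at 0 in wild type. Most of both sums was Vim, at 51.1 and 301 RPKM. Of 7 macrophage and leukocyte markers, 2 reached 1 RPKM in each library, with sums of 173.3 and 91.82 RPKM, most of it Laptm5 at 150 and 65 RPKM. The knockout libraries therefore differ from wild type in cell markers as well as in KAP1, the part of this in the peak lists was not tested, and in bulk samples fewer cells of a type cannot be told apart from less RNA per cell.

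Of the 31 genes whose start lay inside a peak of wild type over input, 4 were on the list of imprinted genes, and their promoters are shown because the peaks bear on them directly and ZFP57 acts at such places. They are the RefSeq promoters of Nnat, Nap1l5, Meg3 and Peg3, with that of the germline gene Fkbp6, which also had a peak over its start, each 250 bases before to 50 bases after the start on the gene's strand. The coordinates are of build GRCm38.p6 (chr2:157559828-157560127 on the plus strand for Nnat, chr6:58907077-58907376 on the minus strand for Nap1l5, chr12:109540746-109541045 on the plus strand for Meg3, chr7:6730370-6730669 on the minus strand for Peg3 and chr5:135349864-135350163 on the minus strand for Fkbp6), whereas all peak coordinates below are of mm9, so the bases were not laid onto the peaks. Capitals mark TGCCGC or its reverse complement GCGGCA.
Nnat: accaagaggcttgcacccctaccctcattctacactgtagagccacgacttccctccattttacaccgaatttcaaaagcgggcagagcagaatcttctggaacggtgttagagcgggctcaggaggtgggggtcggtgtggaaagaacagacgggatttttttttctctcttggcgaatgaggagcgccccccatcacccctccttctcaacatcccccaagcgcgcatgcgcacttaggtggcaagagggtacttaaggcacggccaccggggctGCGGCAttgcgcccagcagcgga
Nap1l5: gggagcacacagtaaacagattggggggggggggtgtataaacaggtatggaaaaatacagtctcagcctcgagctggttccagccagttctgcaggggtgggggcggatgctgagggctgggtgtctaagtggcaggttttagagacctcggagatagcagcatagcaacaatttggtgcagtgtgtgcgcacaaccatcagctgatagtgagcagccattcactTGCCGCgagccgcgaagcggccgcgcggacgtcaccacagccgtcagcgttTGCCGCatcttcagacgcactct
Meg3: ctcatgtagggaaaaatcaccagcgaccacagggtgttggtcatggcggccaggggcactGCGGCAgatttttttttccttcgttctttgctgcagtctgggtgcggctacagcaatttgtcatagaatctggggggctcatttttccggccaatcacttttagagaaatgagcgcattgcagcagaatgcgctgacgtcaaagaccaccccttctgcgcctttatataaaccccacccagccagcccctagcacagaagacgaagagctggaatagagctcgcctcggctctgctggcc
Peg3: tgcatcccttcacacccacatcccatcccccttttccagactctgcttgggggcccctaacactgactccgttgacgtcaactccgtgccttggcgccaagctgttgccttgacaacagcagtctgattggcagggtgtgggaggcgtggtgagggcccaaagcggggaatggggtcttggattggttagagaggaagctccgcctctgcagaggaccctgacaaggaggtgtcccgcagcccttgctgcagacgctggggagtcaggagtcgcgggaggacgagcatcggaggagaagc
Fkbp6: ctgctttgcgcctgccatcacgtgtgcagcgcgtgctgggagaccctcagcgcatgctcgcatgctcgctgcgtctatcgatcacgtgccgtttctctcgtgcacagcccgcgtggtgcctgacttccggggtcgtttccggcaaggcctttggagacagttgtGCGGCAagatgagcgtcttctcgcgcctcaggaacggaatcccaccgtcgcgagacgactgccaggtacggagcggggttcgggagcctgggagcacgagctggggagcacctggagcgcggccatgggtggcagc
The Nap1l5 promoter held 2 copies of the hexamer, those of Nnat, Meg3 and Fkbp6 held 1 each, and that of Peg3 held none within these letters. Over all 32851 RefSeq promoters of this length, 3813 (11.6%) held it on either strand, each counted once whether or not the 2 forms overlapped. Of the 31 genes, 21 matched the table, with 26 promoters, of which 6 (23.1%) held the hexamer. For wild type over knockout it was 6 of 16 promoters (37.5%), and for the knockout over input 5 of 15 (33.3%). The hexamer contains CG, and the median number of CG in these promoters was 14.5, 14 and 17, against 7 over all promoters. The part of this in the shares was not tested. A further Meg3 promoter and a further Fkbp6 promoter in the table are not shown.

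Peaks were narrow and of similar width in the 3 lists. The median width was 559 bp for wild type over input, 561.5 bp for wild type over knockout and 534 bp for knockout over input, and 3.36%, 2.9% and 2.21% of peaks were wider than 1000 bp. Together the wild-type peaks over input covered 1904 kb. Scores were strongly skewed in each list: the lowest was 50.01, 50.01 and 50.04, the median 59.73, 59.66 and 62.62, and the highest 1794.1, 1170.36 and 3100. A score of 100 or more was given to 345 peaks (11.1%) of wild type over input, 248 (10.4%) of wild type over knockout and 108 (5.69%) of knockout over input. Since each list is its own call, scores are compared below within a list only.

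The 2 lists that share the wild-type immunoprecipitate had 1802 peaks in common, which is 58.1% of wild type over input (95% Wilson interval 56.4 to 59.9%, counting error only) and 75.7% of wild type over knockout (73.9 to 77.3%). All 1802 had identical coordinates in both, and 723 also had the same score. As both lists come from 1 immunoprecipitate, this overlap is no check of reproducibility. The knockout immunoprecipitate gave nearly separate peaks: 76 peaks of wild type over input (2.45%, interval 1.96 to 3.06%) overlapped one, which is 77 of the knockout list (4.06%, interval 3.26 to 5.04%). Of wild type over knockout, 3 peaks (0.126%) overlapped the knockout list, a comparison in which the knockout library serves once as control and once as signal. The labels state that 586 of the 3099 wild-type peaks, or 18.9%, are in another KAP1 map from E14 ES cells, which was not analysed here.

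Within wild type over input, the share also called over the knockout went up with the score. With the peaks ordered by score and cut into 4 groups of equal size, it was 44.4%, 52.5%, 60.6% and 75.1% from the lowest group to the highest. Of wild type over knockout, 580 peaks were not in the list over input, and the share found there went from 362 of 596 peaks in the lowest score group to 553 of 596 in the highest. Peaks of low score in 1 list were thus those most often missing from the other.

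The highest-scoring peak in both wild-type comparisons that was absent from the knockout list lay in the gene body of Slc10a7, a membrane transporter gene, at chr8:81112163-81112794, with a score of 1170.36 in each list. It overlapped an H3K9me3 region found in wild type only. Slc10a7 RNA measured 8.19 RPKM (wild type) and 9.97 RPKM (knockout). Next over input, apart from 2 peaks shared with the knockout list and not called over the knockout, was Ezr, which encodes the membrane linker ezrin: its peak at chr17:6948999-6949993 scored 912.96 over input and 479.01 over the knockout, and Ezr RNA was 50.25 and 40.16 RPKM. Then followed Nnat, the imprinted neuronatin gene, with 851.8 and 147.36, a peak within Wdr92 and 2.97 kb from the start of Pno1, a ribosome assembly factor gene, with 809.1 and 286.62, and Habp4, with 783.72 and 462.74. Nefm, which encodes a neurofilament subunit, had a peak of 777.86 and 395.94 at 3.15 kb past its start. Its RNA was 0.4511 RPKM (wild type) and 13.16 RPKM (knockout), a log2 difference of 3.29. RNA differences are log2((knockout + 1)/(wild type + 1)) of RPKM, which understates those of low genes, a gene at 1 RPKM or more in either library counts as measured, and 2-fold is the size called. By this measure 12.5% of all 12024 measured genes were higher and 3.18% lower in the knockout. Of the genes just described, Nefm and Nnat differed by 2-fold or more in RNA, whereas Slc10a7, Ezr, Pno1 (47.29 and 40.23 RPKM), Habp4 (1.737 and 3.324 RPKM) and Polrmt, the mitochondrial RNA polymerase gene (30.36 and 17.46 RPKM, peak score 659.06 in both lists), did not.

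Peaks shared with the knockout list had their own character. Of the 76, 11 lay in 2 short stretches, chr9:2999842-3038574 with 7 peaks and chr2:98502228-98507638 with 4, and neither stretch had a peak over the knockout. These stretches gave the highest score of the knockout list, 3100 on chromosome 2, with up to 1423.9 on chromosome 9, and the highest of wild type over input, 1794.1. No deposited gene lay within 20 kb of either. A peak at chr9:35112636-35113420, 37.6 kb from the start of Rpusd4, was of the same kind, with 958.54 in wild type and 1706.31 in the knockout. Of the 76 shared peaks, 47 overlapped H3K9me3 of wild type, the 11 in the 2 stretches among them. For the 73 shared peaks not called over the knockout it was 44 (60.3%), beside 30.5% of all peaks of wild type over input. The 3 peaks that stood in all 3 lists were at Nnat (knockout score 78.39), within Wdr92 (57.49) and 5.48 kb from the start of Dcdc2a at chr13:25142077-25142706 (632 over input, 152.1 over the knockout, 92.81 in the knockout). Signal over the knockout was called at these 3 although the knockout immunoprecipitate also gave a peak.

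Peaks were spread over all chromosomes, at 1.24, 0.952 and 0.758 per Mb of autosome in the 3 lists in the order given above. The lowest autosomal density was on chromosome 3 in each list (0.909, 0.602 and 0.576 per Mb). Chromosome X held 32, 27 and 21 peaks, or 0.192, 0.162 and 0.126 per Mb, which was 0.155, 0.17 and 0.166 times the autosomal density. The knockout list showed the low density on X as well, and per gene start instead of per Mb the ratios were 0.249, 0.273 and 0.267. H3K9me3 regions of wild type were not as sparse there, with 9.54 per Mb on X and between 9.5 and 22.9 per Mb on the autosomes. In 276 bins of 10 Mb, the median count was 10, 8 and 7 peaks, and 7, 11 and 14 bins held none.

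**Figure D1:**
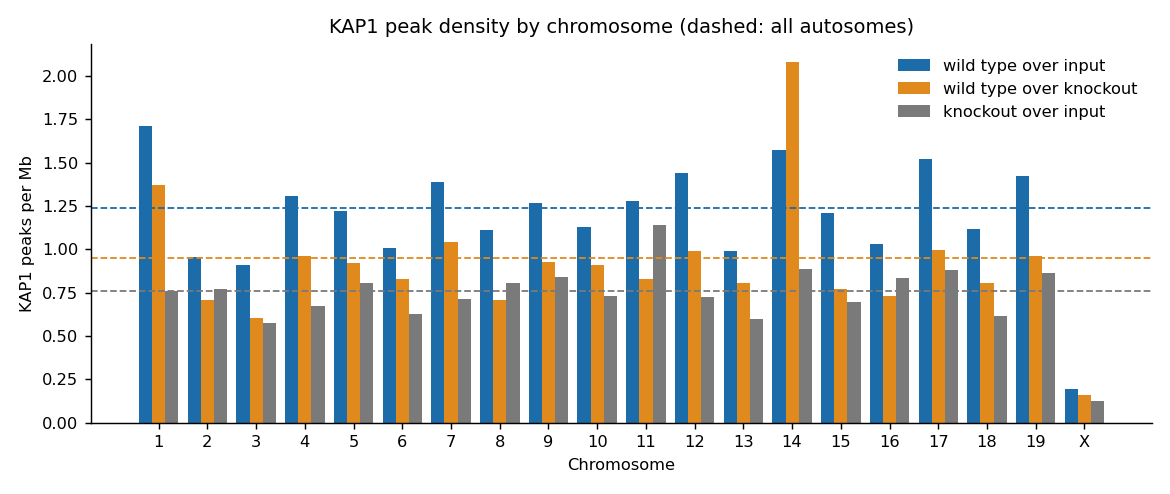
Bars give KAP1 peaks per Mb (vertical axis) on each chromosome (horizontal axis, Y left out) for the 3 lists, 1 library per condition, with dashed lines at the autosomal density of each list. Chromosome 14 reaches 2.08 per Mb for wild type over knockout, chromosome 1 reaches 1.71 per Mb for wild type over input, and chromosome X lies lowest in all 3 lists.

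Chromosome 14 stood out in wild type over knockout, and the excess lay in its distal part. The chromosome held 261 of these peaks, 2.08 per Mb or 2.19 times the autosomal density. Among peaks with a score of 100 or more it was 1.21 times, and 1.33 times in the knockout list. From 100 Mb to its end, a boundary chosen after the values were seen, there were 175 peaks, 6.95 per Mb and 7.35% of the list, against 0.86 per Mb before the boundary and 0.843 per Mb on the other chromosomes. Wild type over input had 81 peaks there, 3.22 per Mb, and the knockout over input 37, 1.47 per Mb. Of the 175 peaks, 45 (25.7%) were also called over input, compared with 79.8% on the other chromosomes, 9 (5.14%) scored 100 or more, and 12.0% overlapped wild-type H3K9me3, compared with 30.7% elsewhere. The bins from 100 to 110, from 110 to 120 and from 120 to 130 Mb held 75, 63 and 37 of them. Genes with a start within 20 kb of these peaks included Pou4f1 and Sox21, which encode neural transcription factors, and Uchl3, Hs6st3 and Nalcn.

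RNA and H3K9me3 also differed on this chromosome. The 43 measured genes from 100 Mb had a median log2 difference in RNA (knockout minus wild type) of 1.2, and 27 of them (62.8%) were higher in the knockout by 2-fold or more and 0 lower, beside 12.5% and 3.18% of all measured genes. The 366 genes before 100 Mb had a median of 0.536 with 23.8% higher, and the 11615 genes of other chromosomes had 0.0669 with 12.0% higher. H3K9me3 regions numbered 12.6 per Mb in wild type and 25.5 per Mb in the knockout on chromosome 14, and the gain was not confined to its distal part. From 40 to 50 Mb there were 107 and 663 regions, with 3 peaks over the knockout, and from 70 to 80 Mb 200 and 77 regions. Chromosome 6, with 12.5 and 26.1 per Mb, had 0.871 times the autosomal density of peaks over the knockout and a median RNA difference of 0.148. Its regions numbered 166 and 120 up to 10 Mb, and 230 and 746 from 120 to 130 Mb. The part of these differences in the peak counts was not tested, and the copy number of the chromosome in each genotype was not analysed here. Without chromosome 14 from 100 Mb, 79.6% of wild type over knockout was also called over input, and the rest of the chromosome had 0.78 times the autosomal density.

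**Figure D2:**
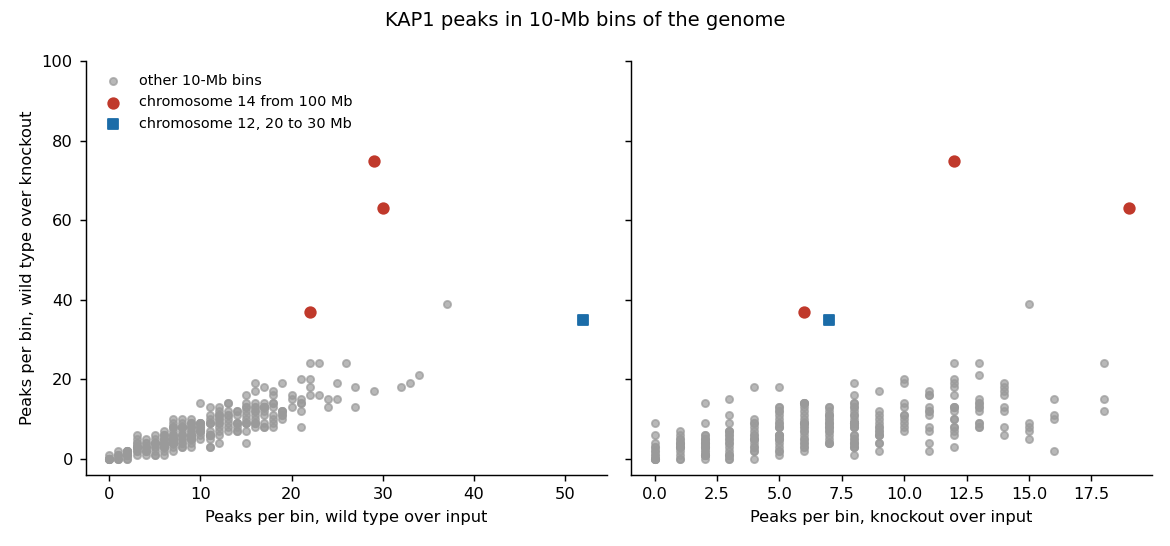
Each point is a 10-Mb bin of the genome, with its peaks of wild type over knockout on the vertical axis against its peaks of wild type over input (left) or of knockout over input (right) on the horizontal axis. The 3 bins of chromosome 14 from 100 Mb, in red, hold 75, 63 and 37 peaks over the knockout, and the bin of chromosome 12 from 20 to 30 Mb, the blue square, holds 52 over input and 35 over the knockout.

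Chromosome 1 had the most peaks of wild type over input, 338, or 1.71 per Mb and 1.38 times the autosomal density. It had 270 peaks over the knockout (1.44 times) and 150 in the knockout list (1.0 times). From 70 Mb on, again a boundary chosen after seeing the values, density was 2.03, 1.58 and 0.826 per Mb in the 3 lists, and before it 1.14, 0.986 and 0.643 per Mb. The median log2 difference in RNA was -0.153 over 476 measured genes from 70 Mb and 0.321 over 186 genes before. H3K9me3 regions on the chromosome numbered 19.9 per Mb in wild type and 11.6 per Mb in the knockout. The excess of peaks was of low scores: among peaks with a score of 100 or more, chromosome 1 had 0.888 times the autosomal density over input and 0.514 times over the knockout. The part of RNA and H3K9me3 in this was not tested, and copy number was not analysed here.

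Other dense places carried H3K9me3. Chromosome 12 from 20 to 30 Mb held 52 peaks of wild type over input, the highest count of any bin in that list, with 35 over the knockout and 7 in the knockout list, and 78.8% of the 52 overlapped wild-type H3K9me3. Only 27 genes of the table lie in this bin, and Grhl1 and Klf11, both genes of transcription factors, had a start within 20 kb of a peak. Chromosome 4 from 140 to 150 Mb held 37 peaks of wild type over input and 39 over the knockout, with 15 in the knockout list. It holds 135 genes, and Gm13040, Gm13043, Gm13057, Gm13157 and Gm13238 had a start within 20 kb of a peak. These predicted genes have near-identical copies, so their reads may be shared between them. The first part of chromosome 17, up to 10 Mb, held 34, 21 and 13 peaks.

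Close neighbours were found in each list. A neighbour of the same list within 10 kb was present for 298 peaks (9.62%) of wild type over input, in 133 clusters, for 158 (6.63%) of wild type over knockout, in 72 clusters, and for 88 (4.64%) of knockout over input, in 39 clusters. Among peaks with a score of 100 or more the order changed, with 7.54%, 4.44% and 10.2% clustered. The 10.2% is of 108 peaks of the knockout list. It came from the clusters in the 2 stretches named above, which hold 11 peaks of that list, and was not recomputed without them. Clustered peaks overlapped wild-type H3K9me3 more often than single peaks in each list: 64.1% against 26.9% over input, 48.7% against 28.0% over the knockout, and 29.5% against 9.23% in the knockout list. The largest cluster outside the 2 stretches named above was at Ezr and Sytl3, chr17:6940322-6961503, with 7 peaks over input, 6 over the knockout and 0 in the knockout list, and 6 of the 7 overlapped wild-type H3K9me3. Next was chr1:173411370-173421074, with 5 peaks over input near F11r, an adhesion molecule gene, and Refbp2.

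Smaller clusters of 3 peaks lay at Agrn, which encodes agrin (chr4:155549798-155553365), at the olfactory receptor gene Olfr901 (chr9:38220503-38225637) and at Dhrs7 (chr12:73739481-73743929). Those at Agrn and Olfr901 had all 3 peaks over the knockout too, and none of these clusters had a peak in the knockout list. The Agrn cluster overlapped H3K9me3 of wild type at all 3 peaks and of the knockout at 0, and Agrn RNA measured 60.49 and 66.52 RPKM. Outside the 2 stretches, the knockout list's largest cluster held 4 peaks on chromosome 16 (chr16:3232644-3237809), and 3 peaks lay at Ece1 and Eif4g3 (chr4:137526685-137535976).

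KAP1 peaks lay mostly away from gene starts. The median distance from a peak to the nearest start was 44.82 kb for wild type over input, 49.64 kb for wild type over knockout and 40.2 kb for knockout over input. Within 1 kb of a start lay 65 peaks (2.1%), 43 (1.81%) and 47 (2.48%), where 1.3% of genome positions lie that close. Within 20 kb the shares were 31.1% (interval 29.5 to 32.8%), 28.9% (27.1 to 30.7%) and 31.2% (29.2 to 33.3%), where 20.2% of positions lie that close. The knockout list was thus as near to gene starts as the wild-type lists. With a score of 100 or more the shares were 34.2%, 41.1% and 31.5%. Beyond 500 kb lay 7.04%, 8.11% and 5.01% of peaks against 15.6% of positions.

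**Figure D3:**
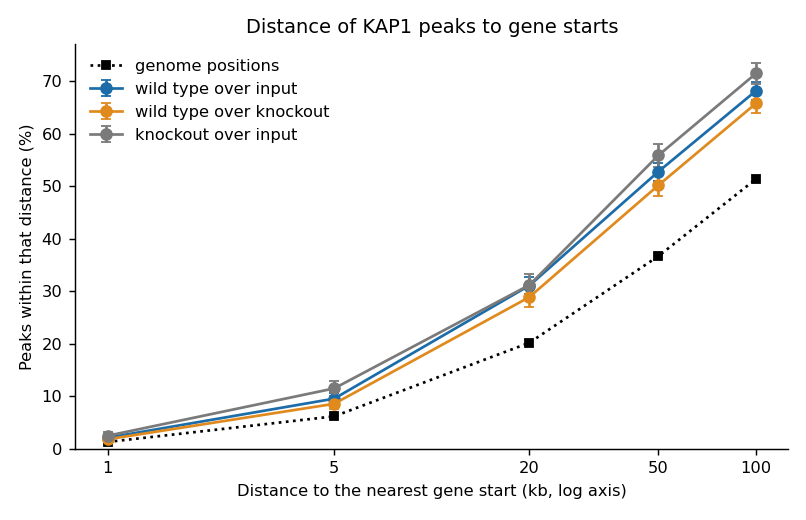
The share of KAP1 peaks (vertical axis, percent) whose midpoint lies within a given distance of the nearest gene start (horizontal axis, kb, log scale) is drawn for the 3 lists with Wilson 95% intervals, beside the share of genome positions (dotted). All 3 lists run above the positions, at 28.9 to 31.2% against 20.2% within 20 kb.

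Gene bodies held 38.4%, 39.1% and 45.3% of the peaks, where 34.9% of positions lie in a deposited transcript. The interval of the knockout list (43.1 to 47.6%) does not touch those of the wild-type lists (36.7 to 40.1% and 37.1 to 41.1%), but with a score of 100 or more the shares were 42.6%, 48.0% and 47.2%. With each gene cut into 10 parts of equal length, the first part held 9.5%, 9.25% and 9.9% of the peaks inside genes and the last 11.3%, 11.5% and 11.8%, so no list was concentrated at the start of genes. Of peaks outside genes, 64.4%, 62.6% and 62.0% lay upstream of the nearest gene start.

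H3K9me3 separated the wild-type lists from the knockout list. Wild-type H3K9me3 regions were overlapped by 945 peaks (30.5%, interval 28.9 to 32.1%) of wild type over input, 699 (29.3%) of wild type over knockout and 193 (10.2%, interval 8.89 to 11.6%) of knockout over input. A peak of median width placed at each position of the genome in turn would touch such a region at 2.53%, 2.54% and 2.5% of positions, so the ratios were 12.0, 11.6 and 4.06. Knockout H3K9me3 regions were overlapped by 22.6%, 22.2% and 13.8% of peaks, and regions found in wild type only by 10.4%, 10.3% and 2.11%. Of the 3099 peaks over input, 554 (17.9%) met H3K9me3 in both genotypes, 391 (12.6%) in wild type alone, 147 (4.74%) in the knockout alone and 2007 (64.8%) in neither.

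The overlap went with the score. From the lowest to the highest of the 4 score groups, 17.5%, 21.3%, 25.3% and 57.8% of peaks of wild type over input met wild-type H3K9me3, and 74.5% of those with a score of 100 or more did. For wild type over knockout the groups gave 13.8%, 23.5%, 26.9% and 53.2%, and for knockout over input 12.6%, 4.43%, 5.06% and 18.5%. The highest group of the knockout list includes the 11 peaks in the 2 stretches on chromosomes 2 and 9.

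**Figure D4:**
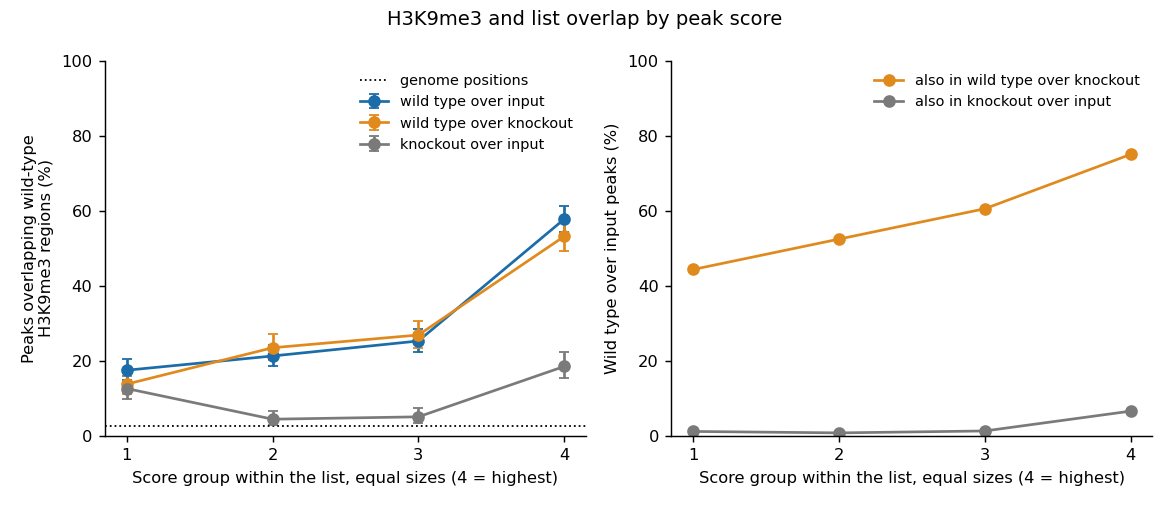
Left, the percent of peaks that overlap wild-type H3K9me3 regions, with Wilson 95% intervals, by score group within each list (4 is the highest), and the share of genome positions (dotted). Right, the percent of wild type over input peaks also called in the other lists. In the highest group 57.8% of wild type over input peaks meet H3K9me3 and 75.1% are also called over the knockout.

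Seen from the mark, few H3K9me3 regions held a peak. Of 37002 wild-type regions, 879 (2.38%) overlapped a peak of wild type over input, and these were wider, with a median of 2299 bp against 692 bp for regions without one. Regions with a peak overlapped a knockout region, and so were retained, in 64.1% of cases and those without in 48.1%. Width goes with this difference: in 4 groups of equal size by region width the shares with and without a peak were 49.3% and 33.6%, 35.0% and 39.1%, 45.9% and 49.1%, and 73.8% and 72.0%, and 587 of the 879 were in the widest group. Within the 3 wider groups the shares with and without a peak were close. The labels say that the mark is reduced but still present on this day of the knockout.

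Imprinted genes were, of the groups with 15 or more genes, the one most often near a peak in both wild-type lists. Of 61 imprinted genes in the table, 20 (32.8%) had a start within 20 kb of a peak of wild type over input, where 6.85% of all 17818 genes did. It was 17 (27.9%) for wild type over knockout, beside 4.88% of all genes, and 6 (9.84%) for knockout over input, beside 4.77%. The 26 distinct peaks over input in or within 20 kb of these genes included 14 (53.8%) with a score of 100 or more and 13 on wild-type H3K9me3. Several serve neighbours that share a peak, so the genes are not independent: Nnat and Blcap, Peg3 and Usp29, Gnas and Nespas, and Igf2 and Igf2as.

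At the imprinted loci the peaks were as follows. The Nnat peak covered the start of the gene (chr2:157384869-157386701) and lay within Blcap, the gene that contains it. Upstream of Meg3, a maternally expressed noncoding RNA gene, a peak centred about 13 kb before the start (chr12:110765443-110767005) scored 577.46 over input and 558.09 over the knockout, and a weaker one at the start (chr12:110778660-110779418) scored 69.22 and 54.47. Both overlapped wild-type H3K9me3, and the upstream one also that of the knockout. Peg3, which encodes a paternally expressed zinc finger protein, had 2 peaks near its start, at chr7:6681834-6682565 with 182.83 in both lists and at chr7:6682605-6683185 with 70.27 over input alone. Both met H3K9me3 in wild type and not in the knockout.

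The peak of Inpp5f lay far inside the gene, 76.7 kb from its start (chr7:135831067-135832056, 342.35 in both lists), and that of Kcnq1, a potassium channel gene, 188 kb from its start (chr7:150481393-150481887, 343.48 and 351.05). Intragenic imprinted promoters are known in both genes. Nap1l5, which sits within Herc3, had a peak over its start (chr6:58856531-58857378, 323.9 and 288.41). Gpr1 had one 14.3 kb inside (392.37 and 215.58), Airn, the noncoding RNA antisense to Igf2r, one at 0.956 kb (182.93 and 77.24), Sgce one at 0.604 kb before its start (175.84 and 86.39), and Snrpn one at 0.539 kb (100.5 in both). At Gnas and Nespas 3 peaks lay between chr2:174121176 and 174125456, with scores of 159.87, 52.75 and 74.6 over input. Upstream of Mir675, a microRNA made from the H19 transcript, a peak at 3.05 kb before the start scored 152.12 and 101.38. Of these, Nap1l5, Inpp5f, Gpr1, Airn, Sgce and Snrpn had no H3K9me3 region of either genotype under the peak.

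Of the 15 measured imprinted genes near a peak of wild type over input, 5 were higher in the knockout by 2-fold or more and 0 lower, where 12.5% of all measured genes were higher and 3.18% lower. Over all 49 measured imprinted genes, 10 were higher and 4 lower. The 5 near a peak were Igf2, a growth factor gene, from 0.8055 to 21.69 RPKM, Igf2as from 0.2095 to 3.78, Nnat from 10.42 to 33.12, Peg3 from 5.181 to 16.6, and Gnas, which encodes a G protein subunit, from 15.97 to 41.69. Igf2 and Igf2as overlap on opposite strands, and whether reads were assigned by strand is not given in the sources used here. Their peak, 3.26 kb before the Igf2 start, had a low score (62.74 and 70.53). Meg3 RNA was 14.76 RPKM (wild type) and 10.1 RPKM (knockout), and Snrpn RNA 22.78 and 19.17, both within 2-fold in spite of peaks near their starts. Inpp5f, whose peak is not near its start, measured 2.242 and 7.091 RPKM.

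**Figure D5:**
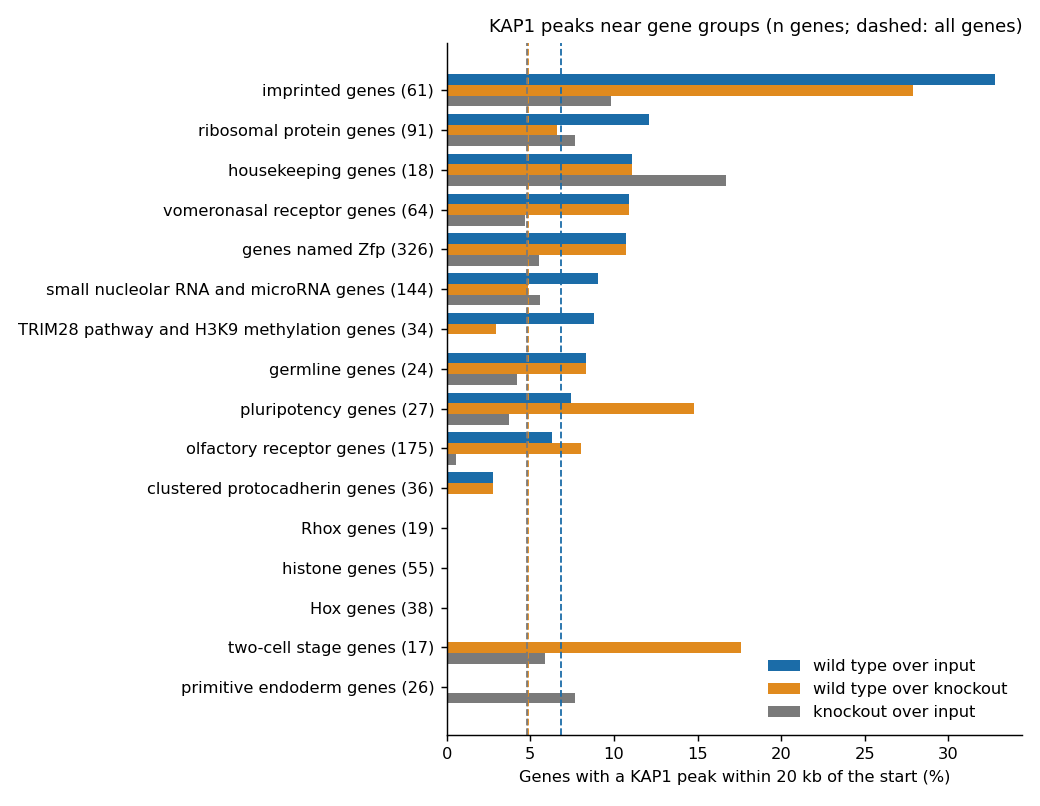
Bars give the percent of the genes of each group with a KAP1 peak within 20 kb of their start, for the 3 lists, in groups of 15 or more genes of the table (number in brackets), with dashed lines for all genes. Imprinted genes reach 32.8% and 27.9% in the wild-type lists against 6.85% and 4.88% of all genes, and small groups move by several percent with 1 gene.

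Genes named Zfp, most of them zinc finger genes and the source of KAP1's own guides, were the largest group. Of 326, 35 (10.7%) had a start within 20 kb of a peak of wild type over input, 35 (10.7%) of wild type over knockout and 18 (5.52%) of knockout over input, beside 6.85%, 4.88% and 4.77% of all genes. In the gene or within 20 kb of it, the counts were 55 (16.9%), 52 and 28 (8.59%), beside 12.7%, 9.46% and 9.14% of all genes. The 51 distinct peaks over input overlapped wild-type H3K9me3 in 23 cases (45.1%), and the 26 of the knockout list in 0. Among the 22 pairs of a Zfp gene and a peak over input inside it, 13 had the peak past the middle of the gene and 10 past 75% of its length. Over the knockout it was 15 and 12 of 22 pairs, and in the knockout list 9 and 3 of 15. Of all peaks over input inside genes 47.2% lay in the first 50% of the length, so a place past the middle was not particular to Zfp genes. The last 3 of 10 equal parts of the length held 126, 126 and 134 of all 1190 peaks over input inside genes. The share past 75% was thus higher in the Zfp pairs of both wild-type lists, on few pairs and not tested.

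The place within the gene varied. Zfp704 had 5 peaks over input, from 3.09% to 72.9% of its length (55.23 to 78.09), and Zfp629 had 1 at 46.1% (342.12). Zfp11 had 2 peaks at 83.9% and 77.1% of its length (169.92 and 208.44 over input), and Zfp13 had 1 at 97.6% (228.96). In Zfp668 a peak at 79.3% of its length (chr7:135010296-135011907) scored 556.33 in both wild-type lists and lay 9.21 kb before the start of Zfp646. The 4 peaks in Zfp11, Zfp13 and Zfp668 met H3K9me3 in wild type and not in the knockout. RNA near these 4 peaks was within 2-fold: 1.906 and 2.13 RPKM for Zfp11, 15.34 and 11.54 for Zfp13, 6.472 and 5.727 for Zfp668, and 16.86 and 13.58 for Zfp646. Of 32 measured Zfp genes near a peak, 2 were higher in the knockout by 2-fold or more and 0 lower. Over all 274 measured Zfp genes 18 were higher and 4 lower, and over all measured genes 12.5% and 3.18%. Zfp629 was among the 2, from 0.7304 to 2.63 RPKM.

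Among pluripotency genes, 2 of 27 (7.41%) had a peak over input near the start and 4 (14.8%) one over the knockout, beside 6.85% and 4.88% of all genes. Nanog, a core transcription factor of ES cells, had 2 upstream, at 2.05 kb (88.17 over input, 87.3 over the knockout) and 10.5 kb (50.74 in both), and its RNA was 66.07 and 25.03 RPKM. Gbx2 had one 4.32 kb from its start (61.41 and 64.16), with 34.72 and 11.33 RPKM. Both were thus lower in the knockout by 2-fold or more, as were 14 of all 27, beside 3.18% of all measured genes. The other two with a peak over the knockout were Dppa5a (61.07) and Nr5a2 (51.56). Of 22 measured primitive endoderm genes, 21 were higher in the knockout by 2-fold or more, beside 12.5% of all measured genes. Near the start, 0 of 26 had a peak of either wild-type list. Sox17 and Pdgfra, 2 of the 26 (7.69%, beside 4.77% of all genes), had one in the knockout list alone, scoring 52.64 and 58.68. In the gene or within 20 kb of it, 2 of 26 (7.69%) had a peak in each wild-type list and 4 (15.4%) in the knockout list. The shares of all genes were 12.7%, 9.46% and 9.14%.

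Genes of the 2-cell stage, a program that ES cells can re-enter, had no start near a peak of wild type over input. Of 17, 1 (5.88%, Tmem92, score 51.71) had a peak of the knockout list near the start, beside 4.77% of all genes. Over the knockout 3 (17.6%) had one, beside 4.88% of all genes. These were Zscan4c and Zscan4d (scores 53.21 and 82.11) and Zscan4f (54.05). The first 2 stand in the table at the same coordinates and so count as 1 place. Zscan4c measured 0.002275 RPKM (wild type) and 6.661 RPKM (knockout). These copies are near-identical, so their values are uncertain. Of 24 germline genes, 2 (8.33%) had a peak near the start in each wild-type list, beside 6.85% of all genes over input and 4.88% over the knockout. Fkbp6, needed in meiosis, had one over the start (chr5:135825741-135826305, 246.75 over input and 198.85 over the knockout) on H3K9me3 of wild type only, and its RNA was 0.09265 and 0.9221 RPKM, below the level called measured in both libraries.

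Of 34 genes for KAP1 partners and H3K9 methylation, 3 (8.82%) had a peak over input near the start, beside 6.85% of all genes: Trim24, a relative of Trim28, with 78.81, the DNA methyltransferase gene Dnmt3b with 55.66, and Trim66 with 50.43. Of these Dnmt3b alone was also called over the knockout. The peak nearest to Trim28 itself was 287.4 kb away. Among repeated gene families, 11 of 175 olfactory receptor genes (6.29%) and 7 of 64 vomeronasal receptor genes (10.9%) had a peak over input near the start, beside 6.85% of all genes. Over the knockout it was 14 (8.0%) and 7 (10.9%), beside 4.88% of all genes. In the knockout list it was 1 (0.571%) and 3 (4.69%), beside 4.77%. Neighbours such as Olfr888, Olfr889 and Olfr890 share a peak. Hox (38), histone (55) and Rhox (19) genes had 0 in all 3 lists. These counts are of genes, and genes that lie close together are not separate places. Clustered protocadherin genes had 1 of 36 over input. In the gene or within 20 kb of it, however, 8 of the 36 protocadherin genes (22.2%) had a peak in each wild-type list and 0 in the knockout list, beside 12.7%, 9.46% and 9.14% of all genes. These genes share exons and overlap, so 1 peak can count for several. Ribosomal protein genes, a list made by symbol that also holds relatives such as Rps6kl1, had 11 of 91 (12.1%) over input and 7 (7.69%) in the knockout list, beside 6.85% and 4.77% of all genes. The highest score over input was at Rpl39l (307.07 over input, 218.64 over the knockout), whose RNA was 2.063 and 14.81 RPKM.

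Over all genes, RNA near peaks was close to that of the background. Of the 850 measured genes with a start within 20 kb of a peak of wild type over input, 12.6% were higher in the knockout by 2-fold or more and 3.65% lower, beside 12.5% and 3.18% of the 12024 measured genes. The medians of the log2 difference were 0.0997 and 0.0802. Near peaks of wild type over knockout 11.9% were higher and 4.64% lower (604 genes), and near peaks of knockout over input 12.3% and 4.06% (616 genes). With 1 library per genotype these are calls by size alone. Among genes near peaks with a score of 100 or more, 20 of 118 (16.9%) were higher and 3.39% lower.

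The same genes can be divided by the H3K9me3 under the peak, with 12.5% of all measured genes higher in the knockout as the background. A gene near several peaks can count in more than 1 of the following classes. Near peaks on H3K9me3 of both genotypes, 22 of 96 measured genes (22.9%) were higher in the knockout by 2-fold or more, with a median log2 difference of 0.488, and without chromosome 14 it was 21 of 94 (22.3%). Near peaks on H3K9me3 of wild type alone it was 13.2% of 121 genes (median 0.152), of the knockout alone 8 of 42 (median 0.301), and of neither 10.9% of 616 (median 0.0383). The 96 genes started from lower levels, with a median of 4.26 RPKM in wild type against 7.57 RPKM over all measured genes, and the part of this in the difference was not tested.

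Among the 22 genes were Nefm, Cdh5, which encodes an endothelial cadherin, from 0.1731 to 6.565 RPKM, Serinc3 from 12.8 to 79.72, Rpl39l, Ept1 from 1.422 to 10.65, Tpm2, a tropomyosin gene, from 4.127 to 15.14, and the imprinted Nnat and Gnas. The predicted genes on chromosome 4, Gm13043, Gm13057 and Gm13040, were listed at 0 in wild type and at 6.364, 6.254 and 6.254 RPKM in the knockout. The largest differences near any peak of wild type over input were at Myl9, a myosin light chain gene, from 1.153 to 30.35 RPKM (log2 difference 3.86), and Igf2 (3.65) and Fhl2 (3.61, from 0.04928 to 11.79 RPKM). The lowest was at Snord72 (-2.62, from 5.134 RPKM to a listed 0), a small nucleolar RNA gene. Its peak, 17.7 kb from the start, scored 60.74 and was not called over the knockout. Of 99 measured small nucleolar RNA and microRNA genes, 39 were lower by 2-fold or more and 11 higher, beside 3.18% and 12.5% of all measured genes.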

How the data were processed

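KAP1, H3K9me3 and RNA were measured in ES3 cells with 1 library per genotype. Per the submitters' processing notes, Bowtie was used with build mm9, and no versions are named. The authors deposited each peak with a score, of which neither the scale nor the cutoff is stated. Peak names are in the form that MACS writes, per the file headers and rows. H3K9me3 regions carry no score, and the wild-type-only list equals the wild-type regions that overlap no knockout region. Reads per library are unknown. RNA came from pooled duplicate cultures per the labels, and chromatin was precipitated in duplicate or triplicate, with no statement on pooling. The authors deposited RPKM per RefSeq transcript and a ratio of the 2 RPKM columns, which was not used. The wild-type column was read as the ES3 library because it shares the table with the knockout, although its name does not state the line.

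Starts were made 1-based. Peaks overlapped at 1 bp or more, a gene was near a peak when the midpoint lay within 20 kb of its strand-aware start, and peaks within 10 kb were clustered. Of 22631 gene rows, 17818 symbols were kept, each by the transcript with the highest mean, and 22110 rows matched a table of GRCm38.p6, used for names and promoters alone. Chromosome length is the largest deposited coordinate. Backgrounds are exact shares of genome positions or of genes. Chromosome Y, with 5 peaks and no genes in the table, was left out of distances to genes. Intervals of shares are Wilson 95% intervals for counting error. Nothing was tested for significance. Named genes are Trim28, those nearest the 10 highest-scoring peaks per list, those at the 5 largest clusters, up to 4 per gene list by score, those with the most peaks, and the 5 highest and 5 lowest RNA differences near peaks. Other genes, and the stretches on chromosomes 1, 2, 9 and 14, were picked with their values in view. The peaks, gene lists and rules were chosen with earlier results of these data known. Functions were tested on simulated intervals. Python 3.11.15, numpy 2.4.6, pandas 2.3.3, scipy 1.17.1 and matplotlib 3.10.9 were used. Alternatives were other windows, overlaps, gaps, pseudocounts and filters, 1 start per symbol, peaks with a score of 100 or more, and leaving out the 2 stretches or chromosome 14 from 100 Mb.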

Additional observations from a re-analysis of the deposited data

How the results depend on the processing

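No paired analysis was possible because each condition is 1 library and no result comes from a test. Of 189 recomputed values, 100 stayed within the counting interval of the value reported (for counts within 1.5 times, for median widths within the quartiles of the list), 84 moved, and 5 reversed, all of them ratios of chromosomal density that went from above 1 to below 1. Values below are in the order wild type over input, wild type over knockout, knockout over input. Counts of peaks fall by construction when weak peaks are left out, as shares near starts or in clusters change with the window or gap. Other moves are not fixed in this way, among them the shares and density ratios at a score of 100 or more. The shares with 1 start or 1 transcript per symbol, without gene rows spanning over 1 Mb, and all shares without the 2 stretches on chromosomes 2 and 9 did not move. None of these settings was combined with a score of 100 or more.

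Peaks with a score of 100 or more numbered 345, 248 and 108, and the upper 50% of scores held 1547, 1187 and 946. Median widths at a score of 100 or more were larger, 702, 686 and 642.5 bp. At a score of 100 or more, 80.3% of wild type over input was also called over the knockout (60% with that score in both lists) and 9.86% (7.25%) in the knockout list, 97.6% (83.5%) of wild type over knockout was also called over input, and 29.6% (23.1%) of the knockout list in wild type over input. With this score 34.2%, 41.1% and 31.5% lay within 20 kb of a start, 42.6%, 48.0% and 47.2% in genes, and 7.54%, 4.44% and 10.2% were clustered, so the knockout list no longer had the highest share in genes and had the highest share of clustered peaks. Wild-type H3K9me3 was met by 74.5%, 72.2% and 38.0%, and knockout H3K9me3 by 45.2%, 41.1% and 44.4%. Thus at this score the excess of the wild-type lists over the knockout list held for H3K9me3 of wild type and not for that of the knockout. The knockout list's shares include peaks in the 2 stretches on chromosomes 2 and 9, which all met H3K9me3 of both genotypes. These shares were not recomputed without the 2 stretches.

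Within 5 kb of a start lay 9.55%, 8.57% and 11.5%, within 50 kb 52.8%, 50.2% and 55.9%, and within 100 kb 68.2%, 65.8% and 71.5%. Clustered peaks were 6.84%, 4.07% and 3.27% at a gap of 5 kb, 13.3%, 10.2% and 6.95% at 20 kb, and 23.4%, 19.7% and 13.9% at 50 kb. With 50% of the peak covered, wild-type H3K9me3 was met by 27.1%, 26.1% and 8.54% and knockout H3K9me3 by 18.6%, 18.3% and 11.6%. Within 1 kb it was 33.8%, 32.5% and 12.0%, and 27.5%, 27.2% and 16.1%.

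Per gene start, the density of chromosome 1 relative to autosomes was 1.8, 1.87 and 1.3, that of chromosome 14 1.82, 3.14 and 1.68, and that of X 0.249, 0.273 and 0.267. The reversals were in chromosomes 1 (both wild-type lists) and 14 (wild type over input) at the higher score, and in chromosome 14 (both wild-type lists) without its distal part. Among peaks with a score of 100 or more it was 0.888, 0.514 and 0.482 for chromosome 1, 0.874, 1.21 and 1.33 for chromosome 14, and 0.263 and 0.571 over input in wild type and knockout for X. Without chromosome 14 from 100 Mb, the rest of that chromosome had 0.767, 0.78 and 0.795, 79.6% of wild type over knockout was also called over input, and 5.21% of it was clustered.

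Genes near peaks of wild type over input called higher in the knockout were 18.0% with a pseudocount of 0.1 RPKM (17.7% of all measured genes), 5.53% with 5 RPKM (4.47%), 8.76% with no filter (8.46%) and 16.9% near peaks with a score of 100 or more (12.5%). Those lower were 5.65% (5.0%), 2.24% (1.36%) and 2.54% (2.14%) with the first 3 of these, and 7.04% (3.18%) with a window of 5 kb.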

Other observations

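Peaks called in the knockout, where little KAP1 RNA remained, lay over the start of 21 genes, chosen for mention after their values were seen. Among them were the proteasome subunit genes Psmb10 and Psmd10, the adaptor gene Ap2m1, the phosphatase gene Dusp1 and the small nucleolar RNA genes Rnu3b1 to Rnu3b4, the last counted from 2 peaks at chr11:87275693-87285460. Zrsr1, an imprinted splicing factor gene inside Commd1, had a peak over its start in the knockout list alone (63.29). Its RNA measured 17.83 RPKM (wild type) and 20.68 RPKM (knockout).

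The bins with many peaks differed in how many genes they hold. Chromosome 14 from 110 to 120 Mb, with 63 peaks over the knockout, holds 16 genes of the table, and chromosome 12 from 20 to 30 Mb, with 52 peaks over input, holds 27, whereas chromosome 4 from 140 to 150 Mb, with 37 over input, holds 135. The densest bin of the knockout list was also chromosome 14 from 110 to 120 Mb, with 19 peaks, of which 0.0% met wild-type H3K9me3 and 21.1% knockout H3K9me3.

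At Lama1, which encodes a laminin chain of the basement membrane, a peak 44.2 kb inside the gene was called in wild type over input (54.66) and in knockout over input (60.31) but not over the knockout, on H3K9me3 of both genotypes. Lama1 RNA measured 18.13 RPKM (wild type) and 301.6 RPKM (knockout).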
